A study of Mus musculus with 18 samples.

Results

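Long noncoding RNA (lncRNA) genes that lie away from protein-coding genes are called distant lncRNA genes here. They were taken as autosomal lncRNA genes of the RefSeq mouse gene table (GRCm38.p6, the assembly of mm10) with both ends over 5 kb from any protein-coding gene body. The rule found 6322 members among 12408 autosomal lncRNA genes (51.0%) and 33069 autosomal lncRNA and protein-coding genes. All 6322 had the biotype lncRNA. Their median length was 9163 bp and their median distance from the nearest coding gene was 49238 bp. The members nearest to the limit were Gm10451, Gm52181 and Gm52187 at 5005, 5008 and 5009 bp, and the genes just outside it were Gm40411, Gm42142 and Gm40621 at 4975, 4985 and 4987 bp. A coding gene lay inside 42 members, and 1265 members (20.01%) shared part of their window with another member, so that neighbours are not independent.

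lncRNAs are transcribed by RNA polymerase II, mostly spliced and polyadenylated, and do not encode a known protein. Some act in the nucleus as scaffolds, some serve as precursors of microRNAs or small nucleolar RNAs, and for many the act of transcription or an enhancer at the locus is thought to matter more than the RNA. H3K4me3 is deposited at active and poised promoters, and H3K27ac at active promoters and enhancers. In mouse embryonic stem (ES) cells, a set of lncRNAs is known to follow the pluripotent state, among them the Platr (pluripotency-associated transcript) genes, Lncenc1 and Tunar.

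The libraries came from mouse ES cells of the strain C57BL/6 with the genotypes Mettl3_KO1, Mettl3_KO2 and Mettl3_Control, called KO1, KO2 and Control below. Mettl3 is the catalytic subunit of the complex that writes N6-methyladenosine on RNA, and the study asked how this RNA mark bears on chromatin. All 3 lines were grown with LIF, the GSK3 inhibitor CHIR99021 and the MEK inhibitor PD0325901, and the labels do not say how the lines were derived, whether each is 1 clone, or whether the replicates were separate cultures, so p-values measure a spread between libraries that may be technical. Of 18 samples, 12 are chromatin immunoprecipitation libraries, 2 for each combination of genotype and mark and each with its own list of peaks, and the 6 inputs were not analysed here.

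H3K27ac lists held 40210 and 39048 peaks in KO1, 65398 and 61383 in KO2, and 29973 and 32957 in Control. H3K4me3 lists held 69995 and 69320 peaks in KO1, 72303 and 66483 in KO2, and 83644 and 81608 in Control. Read depth is unknown. Of 11 ES cell marker genes, 10 carried H3K27ac at a gene end in all 6 libraries and 10 carried H3K4me3, and the exception in H3K4me3 was Esrrb. None of 7 fibroblast (feeder cell) markers and none of 5 endoderm markers carried H3K27ac in any library. Neural, mesoderm and trophoblast markers had mean H3K27ac coverages of 0.375% to 7.24%, 0% to 2.63% and 0.500% to 5.81% in the KO1 and KO2 libraries and 0% in both Control libraries, and the part of other cell states in the results below was not tested. The ends of Mettl3 itself had no peak of either mark in any of the 12 libraries, so these windows check nothing about the deletion.

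Coverage is the percent of the window within 2 kb of either gene end that lay in peaks, and a gene is said here to carry a mark with at least 150 bp covered, the width of the shortest peak. The promoters of 5 members are shown because their windows are returned to below: the largest changes among members that were called in a mark, had all knockout libraries on one side of both Control libraries and have a RefSeq promoter entry, which Gm36549 and Gm35864, with larger changes, lack. Each runs from 250 bases before to 50 bases after the first start listed in RefSeq (GRCm38.p6), 5′ to 3′ on the gene's strand, with CG dinucleotides, the target of promoter DNA methylation, in capitals.
2810410L24Rik: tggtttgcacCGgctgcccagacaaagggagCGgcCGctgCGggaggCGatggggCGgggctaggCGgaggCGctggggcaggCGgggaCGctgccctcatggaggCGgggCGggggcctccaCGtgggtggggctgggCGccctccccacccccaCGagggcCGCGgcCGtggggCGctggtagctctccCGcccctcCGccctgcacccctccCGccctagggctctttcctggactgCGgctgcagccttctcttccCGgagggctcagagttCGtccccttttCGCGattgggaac
Gm17619: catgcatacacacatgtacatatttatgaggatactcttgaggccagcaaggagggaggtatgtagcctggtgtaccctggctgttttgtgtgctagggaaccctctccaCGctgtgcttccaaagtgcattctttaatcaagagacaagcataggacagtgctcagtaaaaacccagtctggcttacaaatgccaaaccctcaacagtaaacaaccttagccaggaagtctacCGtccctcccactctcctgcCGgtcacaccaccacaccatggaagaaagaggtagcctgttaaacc
BB283400: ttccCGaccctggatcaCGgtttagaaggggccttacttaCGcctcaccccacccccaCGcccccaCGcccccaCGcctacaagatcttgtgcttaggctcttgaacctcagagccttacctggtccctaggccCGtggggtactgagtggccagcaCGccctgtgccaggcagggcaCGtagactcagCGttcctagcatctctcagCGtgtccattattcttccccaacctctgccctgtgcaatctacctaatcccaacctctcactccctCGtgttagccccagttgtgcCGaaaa
Gm41955: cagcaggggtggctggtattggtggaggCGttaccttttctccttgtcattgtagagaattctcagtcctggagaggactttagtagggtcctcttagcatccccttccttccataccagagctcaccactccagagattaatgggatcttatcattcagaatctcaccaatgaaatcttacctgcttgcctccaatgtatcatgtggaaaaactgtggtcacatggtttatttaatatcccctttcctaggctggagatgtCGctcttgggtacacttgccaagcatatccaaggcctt
Gm35413: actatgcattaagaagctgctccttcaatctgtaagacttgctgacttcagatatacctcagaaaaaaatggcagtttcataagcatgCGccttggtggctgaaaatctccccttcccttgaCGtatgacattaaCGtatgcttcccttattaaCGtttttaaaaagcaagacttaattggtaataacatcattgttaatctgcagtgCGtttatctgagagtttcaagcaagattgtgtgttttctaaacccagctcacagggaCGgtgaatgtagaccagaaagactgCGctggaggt

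These promoters lie at chr11:120189807-120190106 (minus strand), chr2:170194004-170194303 (minus), chr6:30176373-30176672 (plus), chr1:135202027-135202326 (minus) and chr13:5803106-5803405 (minus). 2810410L24Rik holds 27 CG dinucleotides and a CpG observed-over-expected ratio of 0.659. BB283400 holds 13 with a ratio of 0.547, and Gm35413 holds 7 with a ratio of 0.564. Gm17619 holds 3 with a ratio of 0.169, and Gm41955 holds 2 with a ratio of 0.125. The 5 sequences thus run from CG-rich to nearly CG-free.

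Exact matches to 6 promoter motifs were counted on both strands, with positions from 1 at the 5′ end of the printed sequence. The GC box GGGCGG, which Sp1 binds, occurred at positions 53, 109, 191, 199 and 215 of 2810410L24Rik and in none of the other 4. CCAAT, the NF-Y box, occurred once in 2810410L24Rik, once in Gm35413 and at positions 18, 168 and 193 of Gm41955. TATAAA, ATGCAAAT (the octamer of Oct factors), TGACGTCA (the cAMP response element) and the palindromic NRF1 motif had no match in these windows. No matches overlapped. Over the 4791 distant lncRNA genes with a promoter entry, 8.60% held GGGCGG, against 47.3% of 16456 protein-coding promoters and 36.3% of all 25748 autosomal promoters. TATAAA went the other way, at 18.2% of distant lncRNA promoters, 13.5% of coding promoters and 14.2% of all. CCAAT was about as frequent in each class, at 37.5%, 39.0% and 37.8%. A match is a run of letters, not a bound site.

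Most distant lncRNA genes had neither mark. In 5037 of the 6322 members (79.7%) no library reached 150 bp of either mark, against 31.4% of protein-coding genes and 49.0% of lncRNA genes within 5 kb of one. H3K27ac was carried by 576 and 534 members in KO1, 858 and 832 in KO2, and 402 and 453 in Control. The 4 knockout libraries were all above both Control libraries, and KO2 stood well apart. KO1 averaged 1.30 times and KO2 1.98 times the Control count, and the knockout libraries together 1.64 times (exact permutation test over libraries, two-sided, p = 0.133, where 15 assignments allow no p under 0.0667). The separation was not particular to the members. Counts of coding genes and of lncRNA genes within 5 kb of one were separated in the same way. Their ratios were 1.30 and 1.44 for the knockout libraries together (exact permutation p = 0.133 each). H3K4me3 was carried by 792 and 772 members in KO1, 961 and 851 in KO2, and 775 and 726 in Control. These groups overlapped, with a ratio of 1.12 for the knockout libraries together (exact permutation p = 0.267).

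**Figure D1:**
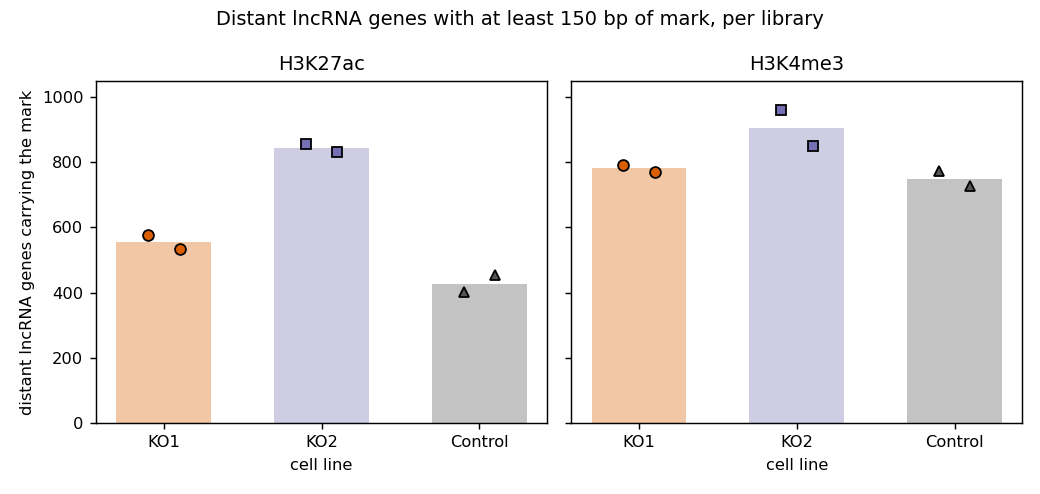
Number of distant lncRNA genes (vertical axis) with at least 150 bp of H3K27ac (left) or H3K4me3 (right) within 2 kb of their ends, for KO1, KO2 and Control; points are the 2 libraries of a line and bars their mean. H3K27ac counts lie at 534 to 858 in the knockout libraries and at 402 and 453 in Control, whereas the H3K4me3 counts of KO1 and Control overlap.

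Protein-coding genes served as a yardstick within each library. Mean H3K27ac coverage of distant lncRNA genes was 1.12% ± 0.0807 in KO1, 2.28% ± 0.0510 in KO2 and 0.876% ± 0.00198 in Control (SD, n = 2 each), and that of coding genes was 4.75% ± 0.238, 9.21% ± 0.0816 and 3.83% ± 0.107. Relative to Control, coverage was 1.28 times in KO1 and 2.60 times in KO2 for distant lncRNA genes, and 1.24 and 2.41 times for coding genes. The ratio of distant lncRNA to coding coverage was 0.236 in KO1, 0.247 in KO2 and 0.229 in Control (exact permutation p = 0.200). The gap, distant lncRNA minus coding coverage, was -3.63 points in KO1, -6.94 in KO2 and -2.95 in Control (exact permutation p = 0.133). For H3K4me3, mean coverage of distant lncRNA genes was 1.71% ± 0.0410 in KO1, 2.16% ± 0.281 in KO2 and 1.78% ± 0.0502 in Control, while that of coding genes was 13.8% ± 0.137, 13.9% ± 0.883 and 14.9% ± 0.128. The gap between the classes was 1.26 points narrower in the knockout libraries, at -12.1 points in KO1, -11.7 in KO2 and -13.2 in Control (exact permutation p = 0.0667, the smallest this design can give). As a ratio, distant lncRNA to coding coverage was 0.124 in KO1, 0.155 in KO2 and 0.119 in Control (exact permutation p = 0.133). Coding genes had less H3K4me3 in all 4 knockout libraries than in either Control library, and distant lncRNA genes did not.

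Where on the gene the marks lay was compared in 3630 members over 4 kb long with a known strand. H3K27ac coverage around the start was 1.59 to 1.79 times that around the far end over the 6 libraries, and H3K4me3 coverage 2.25 to 2.59 times. The same ratios were 6.03 to 8.18 and 8.56 to 9.80 in 13374 protein-coding genes of that length. The marks of distant lncRNA genes were thus less bound to the annotated start, in every library. Carrying a mark also became rarer with distance from coding genes. At 5 to 20 kb, H3K4me3 was carried in both libraries by 17.2% of 1654 members in KO1, 19.95% in KO2 and 16.02% in Control. Beyond 100 kb it was 3.82% of 2066 members in KO1, 4.99% in KO2 and 3.97% in Control. At 5 to 20 kb, H3K27ac was carried by 11.4% in KO1, 18.8% in KO2 and 8.77% in Control, and beyond 100 kb by 2.90%, 4.60% and 2.37% in the same order of lines. The 2602 members at 20 to 100 kb lay between, with H3K27ac at 8.38%, 12.5% and 6.38% and H3K4me3 at 11.5%, 13.8% and 11.3%.

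CpG content was higher where H3K4me3 was present. The median CpG ratio was 0.309 in the 392 members with H3K4me3 in all 6 libraries that have a promoter entry and 0.197 in the 3921 with H3K4me3 in none. In coding genes it was 0.777 with H3K4me3 in all 6 and 0.172 with H3K4me3 in none. A ratio of at least 0.6, a usual mark of CpG islands, was met by 21.9% and 3.14% of these members and by 75.3% and 6.17% of these coding genes.

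The combinations of marks also differed by line. Counting a mark where both libraries of a line had it, both marks stood at 399 members in KO1, 614 in KO2 and 323 in Control. H3K4me3 without H3K27ac stood at 264 members in KO1, 178 in KO2 and 318 in Control, and H3K27ac without H3K4me3, the pattern of enhancers, at 68, 118 and 37 in that order. This order of lines was not particular to the members. Coding genes with both marks numbered 8138 in KO1, 10386 in KO2 and 6935 in Control. Those with H3K4me3 alone numbered 4636, 2640 and 5980, and those with H3K27ac alone 33, 117 and 18. The lncRNA genes near coding genes had the same order in each combination. Of members with H3K27ac, 85.4% in KO1, 83.9% in KO2 and 89.7% in Control had H3K4me3, whereas in coding genes the shares were 99.6%, 98.9% and 99.7%.

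Single members were tested with limma on coverage over all 33069 genes, with genes of under 5% mean coverage of a mark left out. This filter passed 449 members for H3K27ac. It favours members that are high in the line with the most coverage, so their counts are read only against those of all genes tested. For either mark, the p-value of a single member that passed only through the group where it is high is likewise no support by itself. With KO1 and KO2 averaged and set against Control, H3K27ac coverage was called higher in 315 members (70.2%) and lower in 5 (1.11%) at a Benjamini-Hochberg adjusted p of 0.05, against 69.6% and 0.139% of the 9353 genes tested. The share of members called higher was close to the background. After quantile normalization, which gives all libraries the same spread of coverage, 58 members were called higher and 27 lower (12.9% and 6.01%, against 5.29% and 2.08% of all genes), and the median change over the tested members was 1.80 points, against 8.29 points as deposited, while that over all tested genes was -0.42, against 6.59. Without the filter on low coverage, the order turned round: 38.5% of 1018 members were called higher, against 50.1% of all genes, and the median change was 3.07 points over members and 4.56 over all genes.

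The knockout lines were unequal. KO1 alone had 11 members called higher and 2 lower (2.45% and 0.445% of members, against 0.866% and 0.0642% of all genes tested). Its median change was 2.35 points, with 136 members at an unadjusted p under 0.05. KO2 alone had 385 higher and 5 lower (85.7% and 1.11% of members, against 89.6% and 0.107% of all genes), with a median of 13.9 points. Without any 1 of the 6 libraries no member was called in KO1, and no gene of all those tested was called either. In these runs 86 to 129 members had an unadjusted p under 0.05. For both lines together, the 5 lower were 3 without KO1 replicate 2 or KO2 replicate 1 and 2 without either Control replicate. The test of KO2 against KO1 itself called 333 members higher in KO2 and 7 lower (74.2% and 1.56% of members, against 78.8% and 0.16% of all genes). After quantile normalization it called 76 and 36 (16.9% and 8.02% of members, against 6.91% and 2.74% of all genes). A called rise in the mean of both lines is therefore often a rise in KO2: 36 of the 315 had a KO1 mean below the Control mean, and 174 of the 315 had all 4 knockout libraries above both Control libraries. Over all 449 tested members, 183 had such separated libraries upward and 4 downward (40.8% and 0.891%), against 41.9% and 0.139% of all tested genes.

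The largest rises in H3K27ac with all knockout libraries above both Control libraries were at genes known mostly by a catalogue name. Among the same sizes, the called rises of Gm46579, E130018N17Rik and Gm12984 (30.9, 29.4 and 29.2 points), named after their values were seen, had a KO1 library no higher than a Control library. Gm36549 (GRCm38 chromosome 13, 34148432 to 34151020), 11944 bp from the proteasome chaperone gene Psmg4, had 32.96% and 20.8% coverage in KO1, 56.8% and 60.6% in KO2, and 4.70% and 8.07% in Control. The 3 lines did not overlap. The change was 36.4 points (SE 3.43, limma adjusted p = 0.000290), with KO2 higher than KO1 by 31.8 points. Gm35864 (chromosome 2, 172518551 to 172519185), 26493 bp from Tfap2c, a transcription factor of germ cells and trophoblast, had 49.7% and 53.1% in KO1, 80.6% and 84.1% in KO2, and 37.1% and 24.4% in Control. Its change was 36.1 points (SE 3.995, limma adjusted p = 0.000381), and its window is partly that of Gm40009.

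2810410L24Rik (chromosome 11, 120186650 to 120189856) has the CG-rich promoter printed above. Its H3K27ac coverage was 12.5% and 7.73% in KO1, 61.2% and 68.8% in KO2, and 1.596% and 2.53% in Control. KO1 lay slightly above Control and KO2 far above both. 2810410L24Rik passed the H3K27ac filter only through the knockout lines, so its limma call is no support by itself. Its H3K4me3 was already broad, at 73.1% and 77.9% in KO1, 80.0% and 83.9% in KO2, and 78.8% and 74.3% in Control (limma adjusted p = 0.746). The 300 promoter bases followed the window, with 53 and 13 bases in H3K27ac peaks in KO1, 147 and 191 in KO2, and 0 in both Control libraries. H3K27ac coverage of coding genes on chromosome 11 exceeded that on the other autosomes by 1.76 and 1.54 points in KO1, 2.77 and 2.52 in KO2, and 1.10 and 1.07 in Control, and the part of the chromosome in this rise was not tested. Gm17619 (chromosome 2, 170192448 to 170194053), 40771 bp from Zfp217, had 10.9% and 21.0% in KO1, 66.0% and 55.4% in KO2, and 7.12% and 5.98% in Control.

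Gm41955 (chromosome 1, 135190594 to 135202076), 22913 bp from Gpr37l1, was the leading member with like rises in both lines. It had 40.3% and 35.8% in KO1, 46.2% and 43.6% in KO2, and 9.40% and 14.7% in Control, and both knockout lines lay far above Control. KO1 alone passed the test with 26.0 points (SE 3.10, limma adjusted p = 0.0139), and so did KO2 with 32.9 points (SE 3.10, limma adjusted p = 3.09e-05). None of its printed promoter bases lay in a peak of either mark in any of the 12 libraries, so its covered bases lie elsewhere in the window. BB283400, 4930578M01Rik and Gm42292 completed the 8 largest rises with separated libraries, with changes of 30.2, 27.9 and 26.9 points, and all 3 were higher in KO2 than in KO1. The 3 windows lie near Nrf1 (23165 bp), Tuba1a (32464 bp) and D630039A03Rik (5157 bp), and those of BB283400 and Gm42292 are shared in part with neighbouring lncRNA genes.

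Of the 5 members called lower in H3K27ac, 3 had all knockout libraries below both Control libraries. Gm35413 (chromosome 13, 5802782 to 5803155), 58334 bp from Klf6, a zinc finger transcription factor, had 3.77% and 5.44% in KO1, 17.2% and 5.94% in KO2, and 27.6% and 40.5% in Control. It fell by 26.0 points (SE 3.84, limma adjusted p = 0.000872), and each line alone passed the test. Its printed promoter had 0 and 238 bases in H3K27ac peaks in KO1, 260 and 0 in KO2, and 203 and 300 in Control, so the replicates of a knockout line disagreed there. AI847159, 18100 bp from the phosphate transporter gene Slc20a1, had 44.7% and 37.3% in KO1, 35.9% and 35.2% in KO2, and 55.8% and 54.3% in Control. Gm33971, 12282 bp from Cggbp1, fell by 10.4 points, a call lost without KO1 replicate 2, either KO2 replicate or either Control replicate.

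**Figure D2:**
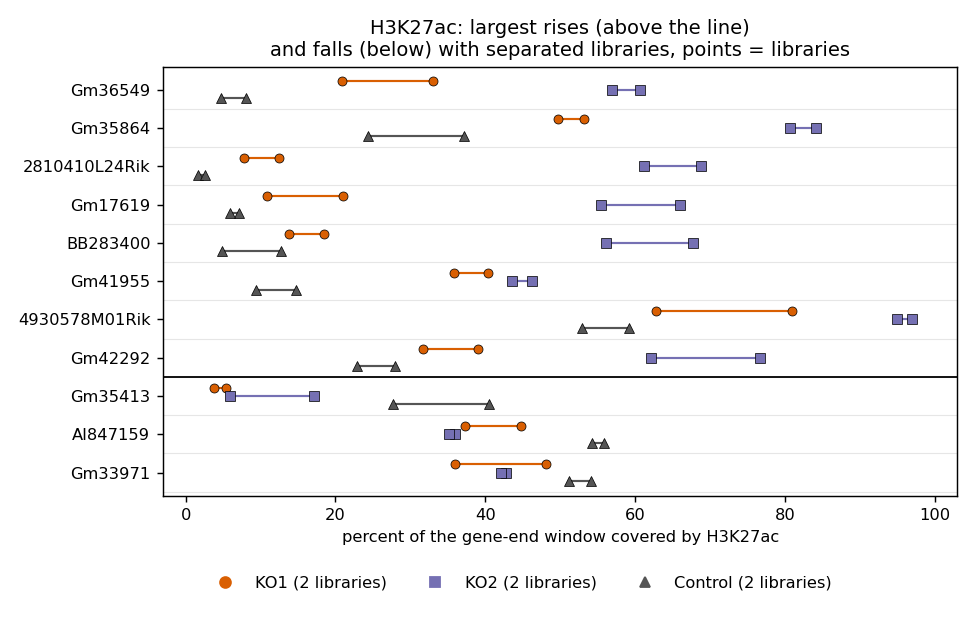
Percent of the gene-end window covered by H3K27ac (horizontal axis) in each library of KO1, KO2 and Control, for the 8 distant lncRNA genes with the largest called rises and the 3 with called falls whose knockout and Control libraries do not overlap; a line joins the 2 libraries of a genotype. KO2 is the highest line in all 8 rises, while Gm41955 has KO1 at 40.3% and 35.8%, close to KO2 at 46.2% and 43.6%.

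H3K4me3 moved in both directions. Of 565 members that passed the filter, 41 were called higher (7.26%) and 24 lower (4.25%) for the mean of both lines, against 1.19% and 5.13% of the 15035 genes tested. Coding genes had 0.837% higher and 4.86% lower, and lncRNA genes near coding genes 1.58% and 6.81%. The median change was 1.19 points over the tested members and -1.22 points over all tested genes. KO1 alone had 8 members higher and 21 lower (1.42% and 3.72% of members, against 0.273% and 2.02% of all genes). KO2 alone had 77 higher and 13 lower (13.6% and 2.3% of members, against 2.1% and 5.24% of all genes). KO2 against KO1 gave 30 higher and 2 lower (5.31% and 0.354% of members, against 0.938% and 0.239% of all genes). All 4 knockout libraries lay above both Control libraries at 102 tested members and below at 63 (18.1% and 11.2%), against 6.21% and 24% of all tested genes.

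These H3K4me3 calls were fragile. With 1 kb windows 0 members were called higher and 1 lower by limma (0% and 0.165%, against 0.02% and 0.14% of all genes), with 172 at an unadjusted p under 0.05. Without Control replicate 1 the counts were 2 and 1, without Control replicate 2 they were 4 and 5, without KO1 replicate 1 they were 11 and 5, and without KO1 replicate 2 they were 10 and 9. Without KO2 replicate 1 they were 24 and 24, and without KO2 replicate 2 they were 30 and 8. The shares of all genes fell too, to 0.0399% higher and 0.512% lower without Control replicate 1 and 0.219% and 0.942% without Control replicate 2. They were 0.206% and 0.975% without KO1 replicate 1, and 0.258% and 1.02% without KO1 replicate 2. For KO2 replicates 1 and 2 left out, they were 0.577% and 4.22%, and 0.605% and 1.46%. In KO2 alone, the 77 higher and 13 lower were 45 and 10 without KO1 replicate 1 and 53 and 11 without KO1 replicate 2. They were 20 and 6 without KO2 replicate 1, and 30 and 1 without KO2 replicate 2. They were 23 and 3 without Control replicate 1, and 19 and 4 without Control replicate 2. In these runs the KO2 shares of all genes were 0.362% to 1.25% higher and 0.665% to 2.82% lower. With all libraries they were 2.1% and 5.24%. In KO1 alone limma called 0 members without either KO1 replicate, as over all genes (123 and 132 members at an unadjusted p under 0.05). Without Control replicate 1 it called 0 higher and 2 lower (0% and 0.347%, against 0.00665% and 0.259% of all genes). Without Control replicate 2 it called 0 and 4 (0% and 0.684%, against 0.113% and 0.445%). H3K4me3 coverage of coding genes on chromosome 8 exceeded that on the other autosomes by 1.63 and 1.58 points in KO1, 2.20 and 1.97 in KO2, and 3.95 and 4.05 in Control, and chromosomes 4, 11 and 12 also differed by line. Without these 4 chromosomes, 25 members of 438 were called higher and 16 lower (5.71% and 3.65%, against 1.12% and 3.59% of all genes).

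Gm35864, named above, had the largest H3K4me3 rise with separated libraries as well. It had 47.6% and 40.9% coverage in KO1, 66.9% and 68.5% in KO2, and 26.9% and 25.1% in Control. The lines did not overlap, and the change was 29.9 points (SE 2.36, limma adjusted p = 0.00336), with KO1 and KO2 each past the threshold. Gm39742 (chromosome 1, 191928570 to 191930235), 15322 bp from the zinc transporter gene Slc30a1, had 39.8% and 47.4% in KO1, 61.2% and 48.0% in KO2, and 25.1% and 21.7% in Control. Mir205hg (chromosome 1, 193506460 to 193510210) hosts a microRNA known from epithelial cells. It had 17.8% and 25.8% in KO1, 28.3% and 31.4% in KO2, and 6.399% and 9.01% in Control, a rise of 18.1 points (SE 2.47, limma adjusted p = 0.0132). All 4 knockout libraries were above both Control libraries at these 3 genes, and the last 2 calls were lost without either Control replicate. All 3 calls were lost with 1 kb windows. The call of Gm39742 was also lost without either KO1 replicate and with peaks of −log10 q of at least 5.

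Gm41955, Gm46159, Gm34231, Gm32142 and Bloodlinc rose by 21.9, 17.0, 14.3, 13.3 and 13.1 points. Gm32142 (chromosome 11, 20476408 to 20478381), 64785 bp from Sertad2, had 35.2% and 33.1% in KO1, 29.7% and 31.3% in KO2, and 17.4% and 20.6% in Control, and passed in each line alone. Bloodlinc (chromosome 11, 102375551 to 102377020), a lncRNA of mouse erythroid cells near the red cell anion exchanger gene Slc4a1, had 27.9% and 34.6% in KO1, 43.1% and 37.9% in KO2, and 21.2% and 24.3% in Control. Its call was lost without any 1 of the 6 libraries, KO1, KO2 and Control alike. The call of Gm41955 was also lost without any 1 of them, its Control values being 7.11% and 22.2%. Gm34231 was the only one of these 5 with a difference between KO2 and KO1 past the threshold, at 20.4 points (limma adjusted p = 0.0311).

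The H3K4me3 falls were led by Gm35413, at 0% and 3.43% in KO1, 0% in both KO2 libraries, and 23.5% and 34.8% in Control. It fell by 28.3 points (SE 2.95), and both lines passed alone, though it passed the H3K4me3 filter only through Control. Its printed promoter kept 0 and 38 bases in H3K4me3 peaks in KO1 and 0 in both KO2 libraries, against 277 and 300 in Control. Gm36859 (chromosome 2, 173290295 to 173291597) and Gm46780 (chromosome 2, 173288383 to 173290130), 13564 and 11652 bp from Pmepa1, a gene that TGF-beta signalling induces, share most of a window and count as 1 locus. Gm36859 had 19.8% and 31.9% in KO1, 36.2% and 31.4% in KO2, and 56.2% and 57.0% in Control.

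BB283400 (chromosome 6, 30176623 to 30178046) moved in opposite directions in the 2 marks. Its H3K4me3 was 44.5% and 45.7% in KO1, 64.7% and 58.1% in KO2, and 74.4% and 72.1% in Control, lower by limma's estimate of -19.999 points (SE 2.64, limma adjusted p = 0.0121). Its H3K27ac was 18.5% and 13.8% in KO1, 56.1% and 67.7% in KO2, and 4.81% and 12.7% in Control, a rise of 30.2 points (SE 3.64, limma adjusted p = 0.000468). KO2 was nearer to Control in H3K4me3 and farthest from it in H3K27ac. AI847159, 4930444M15Rik (near Tsc22d1), 2210420H20Rik and LOC115487230 fell, with changes of -20.4, -18.02, -16.6 and -16.01 points. LOC115487230 (chromosome 9, 78487540 to 78489161), 5816 bp from the translation elongation factor gene Eef1a1, had 17.8% and 22.7% in KO1, 22.8% and 17.5% in KO2, and 37.3% and 35.1% in Control. Among the H3K4me3 falls, the calls of Gm36859, Gm46780, BB283400, AI847159, 4930444M15Rik, 2210420H20Rik and LOC115487230 were lost without either Control replicate and with 1 kb windows. All of these but Gm36859 were also lost without at least 1 of the KO1 and KO2 replicates.

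**Figure D3:**
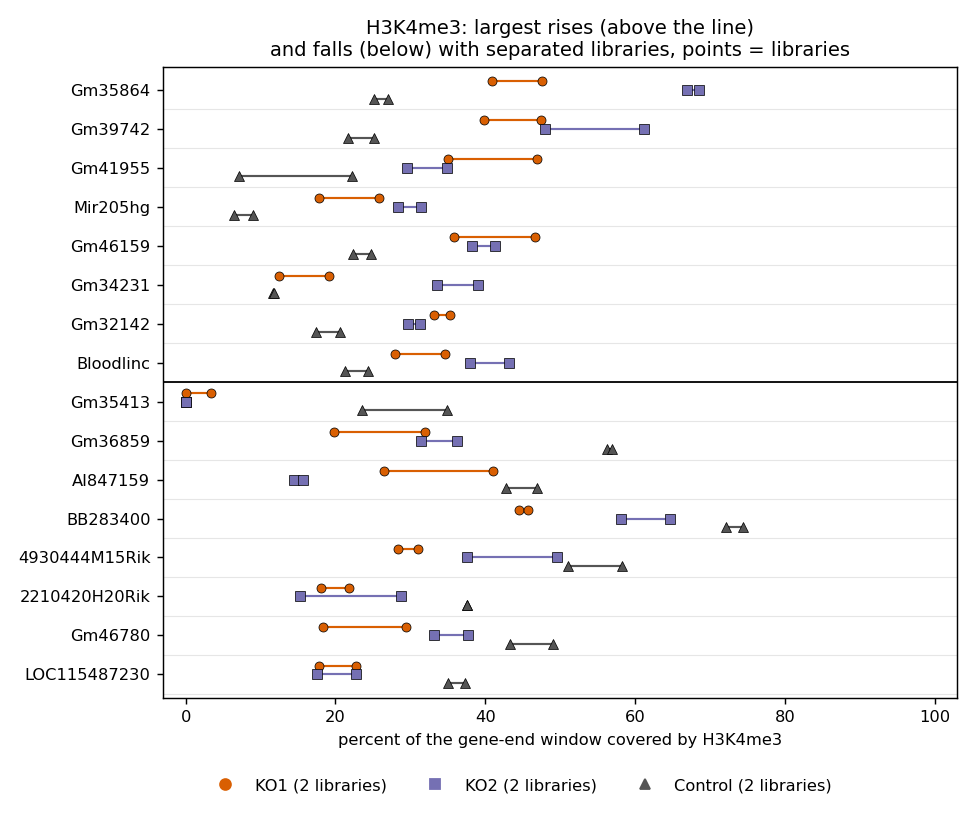
Percent of the gene-end window covered by H3K4me3 (horizontal axis) in each library of KO1, KO2 and Control, for the 8 distant lncRNA genes with the largest called rises and the 8 with the largest called falls whose knockout and Control libraries do not overlap; a line joins the 2 libraries of a genotype. Gm35413 has no H3K4me3 in 3 of its 4 knockout libraries, against 23.5% and 34.8% in Control.

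Both marks could be tested at 403 members. H3K27ac and H3K4me3 were both called higher at 34 members (8.44%, against 1.65% of the 9234 genes tested in both) and both lower at 3 (0.744%, against 0.065%), Gm35413, AI847159 and Gm41986, the last named after its values were seen. H3K27ac was higher and H3K4me3 lower at 10 (2.48%, against 3.52% of all genes), among them BB283400, Gm36859, Gm46780 and LOC115487230, and no member had the opposite pair of limma calls. At 239 members only H3K27ac was called, at 8 only H3K4me3 and at 109 neither. All 34 members with a tested H3K27ac and a called H3K4me3 rise therefore also had a called H3K27ac rise. This was near the background: over all genes, 152 had both rises and 1 had an H3K4me3 rise without an H3K27ac call. A further 7 H3K4me3 rises were at members that were not tested for H3K27ac.

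**Figure D4:**
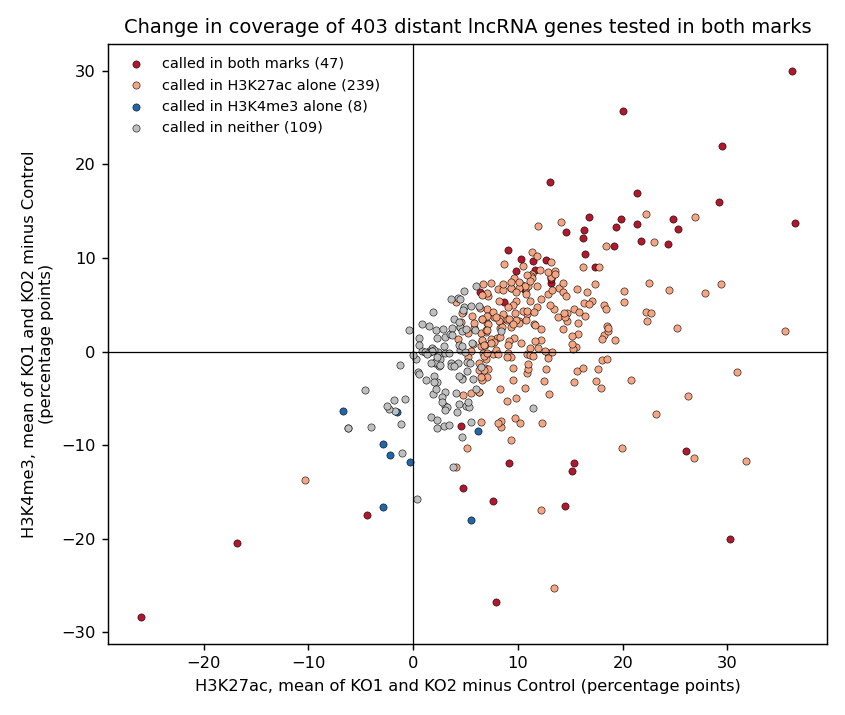
Change in H3K27ac coverage (horizontal axis) and in H3K4me3 coverage (vertical axis), each in percentage points with KO1 and KO2 averaged and Control subtracted, for the 403 distant lncRNA genes tested in both marks; colours give the marks called by limma. Most points lie right of zero, and the 47 called in both marks comprise 34 at upper right, 10 at lower right and 3 at lower left.

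Of the lncRNAs of the pluripotent state, 15 of 22 on autosomes were distant lncRNA genes, and 14 of the 15 carried each mark in at least 1 library. H3K4me3 was in all 6 libraries at 12 of them, and of 11 tested none was called in either direction by limma, against 1.19% higher and 5.13% lower over all genes (2 at an unadjusted p under 0.05; median change -0.30 points). H3K27ac was tested at 8. For the mean of both lines, 4 were called higher (Platr4, Tunar, Platr26 and Platr27), and in KO2 alone all 8, against 0 in KO1 (0 at an unadjusted p under 0.05). The shares over all tested genes were 69.6% for both lines, 89.6% in KO2 and 0.866% in KO1. Tunar and Oip5os1 passed the filter only through their KO2 libraries. The median change of the 8 was 5.15 points, below the 6.59 points of all tested genes. After quantile normalization none of the 4 was called, and the estimates of Platr26 and Platr27 turned to -2.70 and -2.76 points.

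Tunar, a lncRNA needed for pluripotency and neural differentiation in mouse ES cells, had no H3K27ac in either KO1 library or either Control library. It had 17.1% and 15.98% in KO2, a difference from Control in that line alone (KO2 minus Control 16.5 points, SE 1.41). Tunar passed the filter only through KO2, so its limma calls are no support for this difference. The H3K4me3 of Tunar was 22.2% and 23.7% in KO1, 26.9% and 22.6% in KO2, and 23.2% and 21.4% in Control, and these lines overlapped. Lncenc1, a naive-state lncRNA, had 43.2% and 43.7% H3K27ac in KO1, 49.7% and 48.8% in KO2, and 43.3% and 39.1% in Control (limma adjusted p = 0.117 for both lines). Platr4 had 17.2% and 18.5% in KO1, 36.1% and 39.3% in KO2, and 18.2% and 12.9% in Control, so that KO1 overlapped Control. Platr14, with too little coverage for the test, had 5.85% and 4.64% in KO1, 6.12% and 5.87% in KO2, and 0% in both Control libraries. Oip5os1, the conserved lncRNA Cyrano, had 4.47% and 3.90% in KO1, 7.41% and 8.19% in KO2, and 3.89% and 3.62% in Control.

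Among nuclear and housekeeping lncRNAs, 9 of 25 were distant lncRNA genes and all 9 carried both marks in at least 1 library. H3K27ac was called higher at 5 of 7 tested (Snhg20, Malat1, Snhg5, Pvt1 and Mir17hg; median change 5.55 points, against 6.59 over all tested genes), in KO2 alone at 6 and in KO1 at 0 (0 at an unadjusted p under 0.05). Over all tested genes 69.6% were called higher for both lines and 89.6% in KO2, so these counts are near the background. Mir17hg passed the H3K27ac filter only through its KO2 libraries. After quantile normalization none of the 5 was called, and Snhg5, Pvt1 and Mir17hg turned to -2.64, -2.95 and -1.20 points. Malat1, an abundant RNA of nuclear speckles, had 39.5% and 36.4% in KO1, 70.9% and 66.2% in KO2, and 39.9% and 36.3% in Control. KO1 and Control overlapped, and KO2 exceeded KO1 by 30.6 points. Its neighbour Neat1, the scaffold of paraspeckles, had 46.7% and 44.6% in KO1, 47.9% and 47.3% in KO2, and 47.8% and 46.4% in Control. Snhg20, a host gene of small nucleolar RNA, had 18.05% and 30.3% in KO1, 67.2% and 45.8% in KO2, and 12.7% and 14.4% in Control.

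H3K4me3 was called at none of 8 tested members of this group for both lines (3 at an unadjusted p under 0.05; median change -0.40 points). Over all tested genes 1.19% were called higher and 5.13% lower for both lines, and 5.24% lower in KO2, so these few members are near the background. In KO2 alone it fell at Mir17hg, the host of an oncogenic microRNA cluster, with 42.5% and 53.8% in KO1, 32.4% and 32.8% in KO2, and 51.3% and 54.1% in Control (KO2 minus Control -20.1 points, SE 3.66, limma adjusted p = 0.0261). Malat1 had 64.3% and 64.2% in KO1, 70.1% and 63.1% in KO2, and 61.1% and 68.1% in Control.

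**Figure D5:**
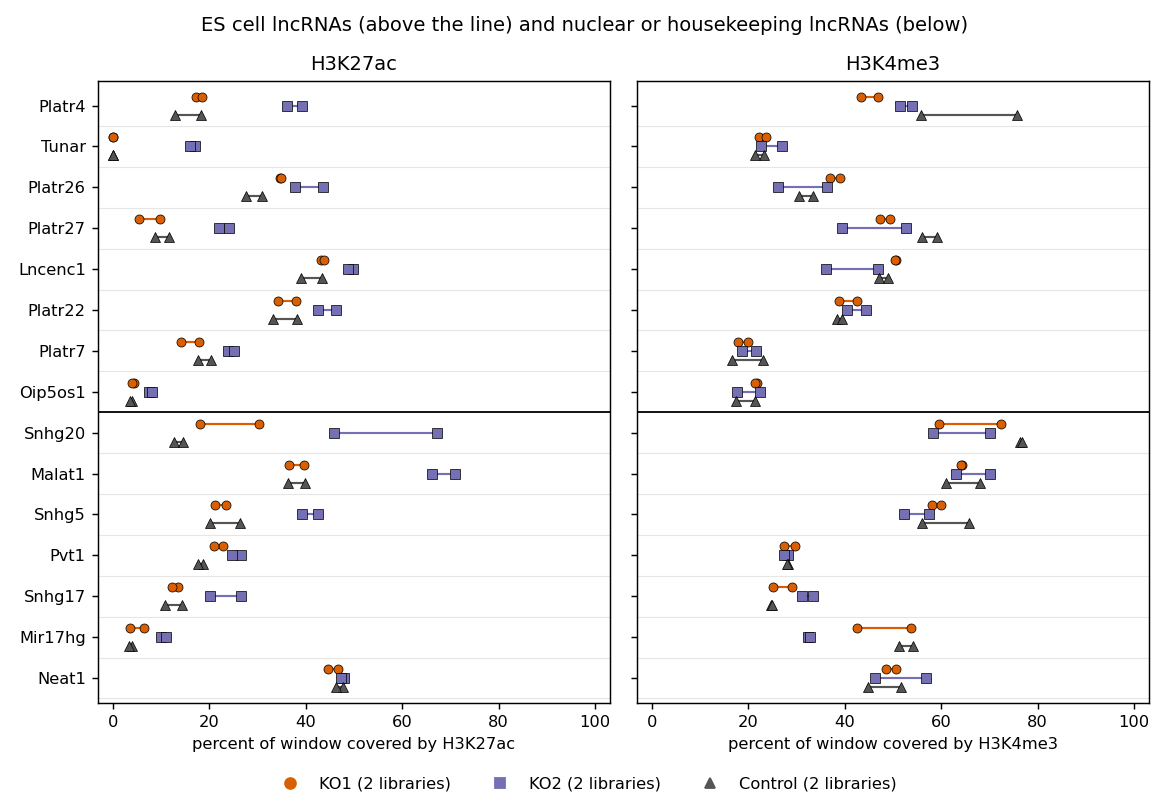
Percent of the gene-end window covered by H3K27ac (left) and H3K4me3 (right) in each library of KO1, KO2 and Control, for the 8 ES cell lncRNAs and the 7 nuclear or housekeeping lncRNAs tested for H3K27ac. KO2 lies apart in H3K27ac at Malat1 (70.9% and 66.2%) and Tunar (17.1% and 15.98%), while the lines overlap in H3K4me3 at both genes.

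Of 9 developmental lncRNAs, 4 carried H3K27ac and 5 carried H3K4me3 in at least 1 library, and Sox2ot, Rmst, Pantr2 and Gm20754 had neither. Bvht, a lncRNA of the cardiac lineage in mouse, was the only one tested for H3K27ac, with 32.1% and 31.2% in KO1, 52.5% and 53.4% in KO2, and 37.1% and 28.8% in Control, and after quantile normalization its estimate turned to -3.11 points. KO1 and Control overlapped there. Of 3 tested for H3K4me3 (Bvht, Hotair and Sox1ot) none was called for both lines (1 at an unadjusted p under 0.05), against 1.19% higher and 5.13% lower over all genes. Hotair, transcribed from the HoxC cluster, had 7.96% and 5.31% in KO1, 6.89% and 5.58% in KO2, and 6.14% and 7.001% in Control, with no H3K27ac in any library. Of the imprinted lncRNAs only Mirg and H19 lay away from coding genes. Neither carried H3K27ac in any library, and H3K4me3 appeared at Mirg in KO2 replicate 1 alone, at 2.21%.

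The members with the broadest marks in Control were, for H3K27ac, Gm35607, Gm52564, Gm41853, 1700096K18Rik and Gm36005. Gm52564 had 82.3% and 75.9% in KO1, 77.7% and 85.7% in KO2, and 80.6% and 70.0% in Control, so that all 3 lines overlapped. Gm35607 had 60.3% and 65.9% in KO1, 95.2% and 94.6% in KO2, and 81.2% and 70.8% in Control, with KO1 below and KO2 above Control. Gm41853 (chromosome 19, 44282438 to 44283697), 9979 bp from the stearoyl-CoA desaturase gene Scd2, had 88.7% and 75.6% in KO1, 91.4% and 95.7% in KO2, and 77.0% and 72.5% in Control, a call lost without KO1 replicate 1, either KO2 replicate or either Control replicate. For H3K4me3 they were 1110002J07Rik, 1700096K18Rik, Gm41853, Mir124a-1hg and Gm52564, none of them called for the mean of both lines by limma. 1110002J07Rik was nearly filled, with 91.9% and 94.2% in KO1, 94.7% and 95.5% in KO2, and 89.9% and 90.0% in Control. Mir124a-1hg hosts a microRNA of neurons. It had 70.5% and 64.3% H3K4me3 in KO1, 77.4% and 72.3% in KO2, and 82.5% and 84.5% in Control (limma adjusted p = 0.0669). Its H3K27ac was 12.3% and 14.8% in KO1, 49.8% and 51.8% in KO2, and 32.7% and 23.9% in Control, with KO1 below and KO2 above Control.

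Presence in both libraries of both knockout lines and in neither Control library gives a stricter view. Shares are of all genes of a class, with or without the mark in Control, and are not rates of gain or loss. H3K27ac met it at 58 members (0.917%), against 2.19% of all genes, and the reverse at 2 (0.0316%), against 0.00907%. The 3 with the highest coverage were Gm35155, 2310034G01Rik and Gm41256, all at 0% in both Control libraries. They passed the filter only through the knockout lines. Gm35155 (chromosome 12, 12828050 to 12829248), 106845 bp from Mycn, had 4.40% and 10.7% in KO1 and 38.3% and 38.8% in KO2. Gm41256, 8581 bp from the AMP kinase gene Prkaa1, had 13.5% and 12.9% in KO1 and 20.6% and 25.1% in KO2, with both lines past the test. 2310034G01Rik had H3K4me3 in all libraries, at 33.1% and 34.4% in KO1, 35.3% and 31.1% in KO2, and 34.4% and 34.1% in Control. The 2 losses were Gm39283 on chromosome 8, at 3.79% and 1.87% in Control, and Gm40307 at 2.51% and 1.91% in Control, both at the low end of what can be seen.

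H3K4me3 was gained in this sense at 31 members (0.490%), against 0.242% of all genes and 0.155% of coding genes, and lost at 5 (0.0791%), against 0.215% of all genes and 0.194% of coding genes. Of the 31, 24 had a promoter entry and none of these reached a CpG ratio of 0.6 (median 0.247), a level that 5.20% of all members with a promoter entry reached (median 0.208). Gm35202 (chromosome 2, 35503524 to 35506092), 39143 bp from Ggta1, had 6.47% and 6.33% in KO1, 14.9% and 11.7% in KO2, and 0% in both Control libraries. It passed the filter only through the knockout lines, and its call was lost without KO1 replicate 1 or either Control replicate. 1110002O04Rik and Gm39036 followed, with 2.26% to 18.8% and 2.80% to 17.1% in the knockout libraries and 0% in Control, and neither passed the test for both lines. The losses with the highest coverage were Gm12678, B130006D01Rik and Gm26761. Gm12678 on chromosome 4 had 0% in all 4 knockout libraries and 4.49% and 10.2% in Control.

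Taken line by line, gains and losses against both Control libraries were as follows. H3K27ac was gained in KO1 at 72 members (1.14%, against 2.31% of all genes) and in KO2 at 276 (4.37%, against 9.52%). Of the 276, 142 had it in neither KO1 library (2.25%, against 4.6% of all genes), whereas 3 members gained it in KO1 and had it in neither KO2 library (0.0475%, against 0.0272%). H3K27ac was lost in KO1 at 11 members (0.174%, against 0.145% of all genes) and in KO2 at 5 (0.0791%, against 0.0393%). H3K4me3 was gained in KO1 at 45 members (0.712%, against 0.463% of all genes) and in KO2 at 95 (1.503%, against 0.959%). Of these, 40 had it in KO2 and in neither KO1 library (0.633%, against 0.448%), and 10 in KO1 and in neither KO2 library (0.158%, against 0.0877%). H3K4me3 was lost in KO1 at 21 members (0.332%, against 0.617% of all genes) and in KO2 at 14 (0.221%, against 0.469%). The members' shares of H3K27ac gains in KO1 and in KO2 were thus below those of all genes. Their shares of H3K4me3 gains were above. These differences were not tested. The shares divide by all genes of a class, though only genes without the mark in Control can gain it, so they are not rates of gain or loss. In Control, H3K4me3 was carried by 12.3% and 11.5% of members and by 64.2% and 64.1% of coding genes. LncRNA genes near coding genes gained H3K4me3 in KO2 at 1.41%, and in KO2 and neither KO1 library at 0.756%.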

How the data were processed

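The submitters' processing notes list mm10 as build and CASAVA, Trimmomatic 0.38, Bowtie 1.2.2 and MACS2, with no version for the last. The authors called peaks in each immunoprecipitated library; whether inputs or the spike-in of the labels' protocols entered the calls is not stated in what was used here. The deposited lists give for each peak a score, a fold enrichment (a ratio), a −log10 p and a −log10 q, with q under 0.01 throughout. These are the authors' values, used only to select peaks within a list. More reads give more and wider peaks, and depth is unknown.

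From peak positions, the percent covered of the union of 2 kb on each side of both gene ends was computed for 33069 autosomal genes. For each mark, limma 3.58.1 (R 4.3.3; lmFit, contrasts, eBayes with trend) was fitted over 6 libraries to genes with a mean of at least 5%, without a block for the replicate number. The contrasts were KO1 and KO2 averaged minus Control, each line minus Control and KO2 minus KO1, with Benjamini-Hochberg adjustment over all genes tested. Values summed over the members were compared with exact permutations over libraries. The code was tested on simulated data. Sequences came from RefSeq promoters of GRCm38.p6, which held 4791 of the 6322 members. Replicates shared 0 to 7 peaks with identical ends.

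Named were, for each mark, the 8 largest called rises and falls with separated libraries, the 5 members highest in Control, list members carrying a mark, and the 3 highest of those gained or lost in both lines. The members and lists were chosen with earlier results of these data known. Alternatives were 1 kb windows, 10 kb distance, equal peak numbers, a −log10 q of at least 5, no low-coverage filter, quantile normalization, log2(bp + 500), other covered lengths, 4 chromosomes or each replicate left out, and a replicate block.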

Additional observations from a re-analysis of the deposited data

Results flagged for a closer look

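The knockout lines differed from each other, by limma's test of KO2 minus KO1 at an adjusted p of 0.05. H3K27ac coverage was higher in KO2 than in KO1 at 333 distant lncRNA genes and lower at 7 (74.2% and 1.56%, against 78.8% and 0.16% of all genes). H3K4me3 coverage was higher at 30 and lower at 2 (5.31% and 0.354%, against 0.938% and 0.239% of all genes). Without either KO1 replicate, or without KO2 replicate 1, limma called 0 members and 0 of all genes in this H3K4me3 test. In these runs 144 to 163 members had an unadjusted p under 0.05. The same holds with 1 kb windows (165 at an unadjusted p under 0.05). After quantile normalization the H3K27ac counts were 76 higher and 36 lower (16.9% and 8.02%, against 6.91% and 2.74% of all genes).

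Among the named genes with the largest H3K27ac rises, KO2 exceeded KO1 by 31.8 points at Gm36549, 31.0 at Gm35864, 54.9 at 2810410L24Rik, 44.7 at Gm17619, 45.7 at BB283400, 24.0 at 4930578M01Rik and 34.0 at Gm42292. At genes that gained H3K27ac in both lines it did so by 31.0 points at Gm35155, 15.7 at 2310034G01Rik and 9.65 at Gm41256. Where Control coverage was highest, KO2 exceeded KO1 by 31.8 points at Gm35607, 17.7 at 1700096K18Rik and 20.9 at Gm36005.

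In the named lists the H3K27ac excess of KO2 over KO1 was 8.20 points at Platr22, 8.61 at Platr7, 16.5 at Tunar, 3.61 at Oip5os1, 15.6 at Platr27, 19.9 at Platr4, 32.3 at Snhg20, 5.54 at Mir17hg, 30.6 at Malat1, 10.5 at Snhg17, 18.7 at Snhg5 and 21.3 at Bvht. For H3K4me3 it was 23.4 points at Gm35864 and 20.4 at Gm34231. The KO2 lists of H3K27ac also held the most peaks in all, 65398 and 61383 against 40210 and 39048 in KO1, and the part of this in these differences was not tested.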

How the results depend on the processing

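The ratio of knockout to Control libraries in members carrying a mark, and the gap between distant lncRNA and coding coverage, kept their direction under every alternative run on them. Quantile normalization, the log2 scale, the replicate block and the change of filter were not run on these values. Counts of limma calls did not. With 1 kb windows, H3K27ac calls in KO1 were 0 higher and 0 lower, as over all genes (104 members at an unadjusted p under 0.05). H3K4me3 calls were 0 and 1 for both lines (0% and 0.165% of members, against 0.02% and 0.14% of all genes). They were 0 and 0 in KO1 (138 unadjusted) and 4 and 1 in KO2 (0.661% and 0.165%, against 0.193% and 0.24%). With peaks of −log10 q of at least 5, H3K27ac calls were 3 and 0 in KO1 (0.739% and 0%, against 0.226% and 0% of all genes). For both lines 3 were lower (0.739%, against 0.102%). H3K4me3 calls were 2 and 4 in KO1 (0.382% and 0.763%, against 0.109% and 0.658%), with 7 lower for both lines (1.34%, against 2.61%). With equal numbers of peaks, H3K27ac calls were 155 and 9 for both lines (42.2% and 2.45%, against 42.4% and 0.294% of all genes). They were 0 and 0 in KO1 (72 unadjusted) and 234 and 10 in KO2 (63.8% and 2.72%, against 75.4% and 0.364%). H3K4me3 had 10 lower in KO1 (1.83%, against 0.967%). Without the low-coverage filter, H3K27ac calls were 0 and 0 in KO1 (166 unadjusted) and 597 and 9 in KO2 (58.6% and 0.884%, against 75.7% and 0.106% of all genes). For both lines 8 were lower (0.786%, against 0.113%). H3K4me3 had 11 lower in KO1 (0.92%, against 0.98%) and 14 lower for both lines (1.17%, against 2.86%). On the log2(bp + 500) scale, H3K27ac calls were 42 and 5 in KO1 (9.35% and 1.11%, against 4.03% and 0.182% of all genes). For both lines 3 were lower (0.668%, against 0.118%). After quantile normalization, H3K27ac calls were 58 and 27 for both lines (12.9% and 6.01%, against 5.29% and 2.08% of all genes). They were 114 and 50 in KO2 (25.4% and 11.1%, against 11.9% and 8.39%), with 9 lower in KO1 (2%, against 0.267%). H3K4me3 had 18 higher in KO1 (3.19%, against 0.758%). Without chromosomes 4, 8, 11 and 12, fewer members were tested. H3K4me3 had 25 higher for both lines (5.71%, against 1.12% of all genes) and 12 lower in KO1 (2.74%, against 1.02%). The causes of these differences were not tested.

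Leaving out 1 library at a time gave, for H3K27ac, 233 to 315 higher and 2 to 5 lower for both lines, 0 to 0 and 0 to 0 in KO1 (as over all genes), and 306 to 407 and 2 to 5 in KO2. For H3K4me3 it gave 2 to 30 higher and 1 to 24 lower for both lines, 0 to 7 and 0 to 18 in KO1, and 19 to 53 and 1 to 11 in KO2. The H3K27ac shares higher for both lines were 49.1% to 65.8% of members and 38.7% to 62.9% of all genes. In KO2 they were 76.4% to 85.4% and 76.8% to 88.9%. For H3K4me3 in both lines, 0.347% to 5.35% of members and 0.0399% to 0.605% of all genes were higher. The shares lower were 0.173% to 4.46% and 0.512% to 4.22%. With the replicate number as a block, calls for both lines were 317 and 7 in H3K27ac (70.6% and 1.56%, against 68.7% and 0.171% of all genes). In H3K4me3 they were 47 and 26 (8.32% and 4.6%, against 1.22% and 4.85%). Within a mark, same-numbered libraries correlated at -0.0002 to 0.039 in their deviations. A shift common to all genes would not show in this correlation, so a shared batch was not tested.

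Of 42 called values of named genes, 6 changed sign, all under quantile normalization in H3K27ac and none called there: Platr26 (-2.70 points), Platr27 (-2.76), Mir17hg (-1.20), Pvt1 (-2.95), Snhg5 (-2.64) and Bvht (-3.11). Over all alternatives, 450 repeats of the 42 kept their call, 160 lost it and 6 changed sign. In H3K4me3, 15 of 16 calls were lost with 1 kb windows, 15 of 17 without Control replicate 1 and 14 of 17 without Control replicate 2. In H3K27ac, the calls of Gm36549, Gm35864, 2810410L24Rik, BB283400, Gm41955, Gm35413, AI847159, Gm35155, 2310034G01Rik and Gm41256 were lost under none of the alternatives run. Of these, Gm35155, 2310034G01Rik and Gm41256 had no H3K27ac in Control and passed the filter only through the knockout lines. 2810410L24Rik, at 1.596% and 2.53% in Control, also passed it only through the knockout lines. The calls of these genes are no support by themselves. With 2 libraries per group and no read counts, small changes and weak peaks could not be resolved.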
